A study of Mus musculus with 15 samples.

Results

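Gene expression was compared between unstressed hearts that overexpress SIRT5 and unstressed wild-type hearts: 3 SIRT5OE sham hearts and 4 WT sham hearts, chosen by genotype and surgery from the 15 hearts of the series, with no measured value used in the choice. SIRT5OE mice carry a LoxP-STOP-LoxP-SIRT5 cassette under the constitutive CAGGS promoter in the 3′UTR of Col1a1, and deletion of the STOP sequence with Sox2-Cre gives expression throughout the body, not in cardiomyocytes alone. The strain goes back to 1 ES cell clone. WT mice were littermates of the SIRT5OE mice, all mice were males of 4 to 8 months, and sham mice had the operation without the aortic band. Whole hearts were taken 4 weeks later, and each heart gave 1 library of ribosome-depleted RNA. Of the other 8 hearts, 4 WT and 4 SIRT5OE, taken after transverse aortic constriction (TAC, a narrowing of the aorta that raises the pressure load), the genotype difference was used to test genes called in sham hearts, since the TAC and sham comparisons share no heart.

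SIRT5 is a sirtuin, an NAD+-dependent enzyme that works mostly in mitochondria. It has little deacetylase activity and instead removes malonyl, succinyl and glutaryl groups from lysines, including those of enzymes of fatty acid oxidation and the TCA cycle, pathways on which the heart relies for fuel. It acts on proteins and not on chromatin directly, and the comparison of the sham groups asks what a raised SIRT5 level alone does to the mRNAs of the heart.

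The deposited values are normalized counts, that is, estimated reads per gene scaled so that hearts can be compared. They summed to between 68778342 and 74282028 in the 7 sham hearts. A gene was kept if 3 or more of the 15 hearts reached a normalized count of 10. This left 16690 genes, whose log2(normalized count + 1) values were fitted with limma over all 4 groups. A log2 difference is SIRT5OE minus WT throughout. A gene was called if its p-value from limma, adjusted for the 16690 genes by the Benjamini-Hochberg method, was under 0.05, and a differentially expressed gene (DEG) had in addition an absolute log2 difference over 1. Mitochondrially encoded transcripts made up 34.3% ± 0.432 (SD, n = 3) of the counts in SIRT5OE sham and 35.5% ± 0.656 (SD, n = 4) in WT sham hearts, a difference of -1.24 percentage points (exact permutation test over the 7 hearts, two-sided, p = 0.0571; 7 hearts allow none under 0.0286). The hearts of a group carry consecutive numbers in brackets in the labels, which do not say what these numbers stand for. If they give an order of handling, the genotype and that order cannot be told apart.

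Sirt5 itself separated the genotypes in every heart. Its normalized counts were 2028, 2215, 2065 and 2366 in the WT sham hearts and 38589, 41951 and 42058 in the SIRT5OE sham hearts. No SIRT5OE value came near the WT range, and the 3 SIRT5OE hearts differed little from each other. Means were 2169 ± 154 (SD, n = 4) and 40866 ± 1970 (SD, n = 3), and the groups do not overlap. The log2 difference was 4.24, a fitted 18.9-fold difference (standard error 0.12, 95% interval 3.98 to 4.50, adjusted p = 3.97e-12 from limma), and the exact permutation test over the 7 hearts gave p = 0.0286, its smallest possible value. In TAC hearts the difference was 4.23 (adjusted p = 1.22e-12 from limma), and it stood apart from the sham value by less than their errors (adjusted p of the interaction = 0.988). The gene lies on chromosome 13 (43365496 to 43395203, GRCm38) and the transgene on chromosome 11, and whether a read came from the one or the other cannot be told apart in these counts.

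None of the other 6 sirtuins was called. Sirt3, the main mitochondrial deacetylase, had means of 2485 in WT and 2434 in SIRT5OE sham hearts and a log2 difference of -0.03 (95% interval -0.33 to 0.27). Sirt4, the third mitochondrial sirtuin, stood at -0.17 (-0.49 to 0.14). Sirt1, a nuclear deacetylase, had the smallest p-value of the 6, with means of 1010 and 849 and a log2 difference of -0.24 (-0.56 to 0.07). The interval of each of the 6 lay within -1 and 1. The 4 kept genes next to Sirt5 on chromosome 13, Gfod1, Tbc1d7, Nol7 and Ranbp9, had differences from -0.04 (Tbc1d7 and Ranbp9) to 0.18 (Gfod1), with unadjusted p-values of 0.107 or more.

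Col1a1, which codes for the alpha 1 chain of type I collagen and carries the transgene in its last part, was not called in sham hearts. Its normalized counts were 3263, 3814, 3159 and 3048 in WT sham and 3102, 3580 and 3480 in SIRT5OE sham hearts, and the groups overlap. The log2 difference was 0.03 (standard error 0.35, 95% interval -0.71 to 0.77). In TAC hearts, where the gene is induced, SIRT5OE hearts were lower by a log2 difference of -1.35 (adjusted p = 0.0340 from limma). Of the 5 kept genes on either side of Col1a1, none was called in the sham comparison. Their differences ran from -1.24 in Eme1, a subunit of a DNA structure-specific endonuclease with few counts, to 0.31 in Hils1.

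Beyond Sirt5, 2 further genes were called. The sham groups thus differed in 3 of 16690 genes (0.018%), all 3 higher in SIRT5OE hearts and all 3 DEGs. At an unadjusted p under 0.05, which adjusts for nothing, 428 genes differed (2.56%), 208 of them higher (1.25%) and 220 lower (1.32%). In 1235 genes (7.4%) the values of the 2 sham groups did not overlap, with SIRT5OE higher in 622 (3.73%) and lower in 613 (3.67%). For comparison, 1208 genes (7.24%) were called between the TAC groups, 635 of them higher (3.8%) and 573 lower (3.43%). The median half-width of the 95% interval was 0.39 on the log2 scale, and for 12359 genes (74.1%) the whole interval lay between -1 and 1. The genotype difference itself was called different between sham and TAC hearts for 0 genes by limma, where 2206 genes had an unadjusted p under 0.05 (13.2%).

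**Figure D1:**
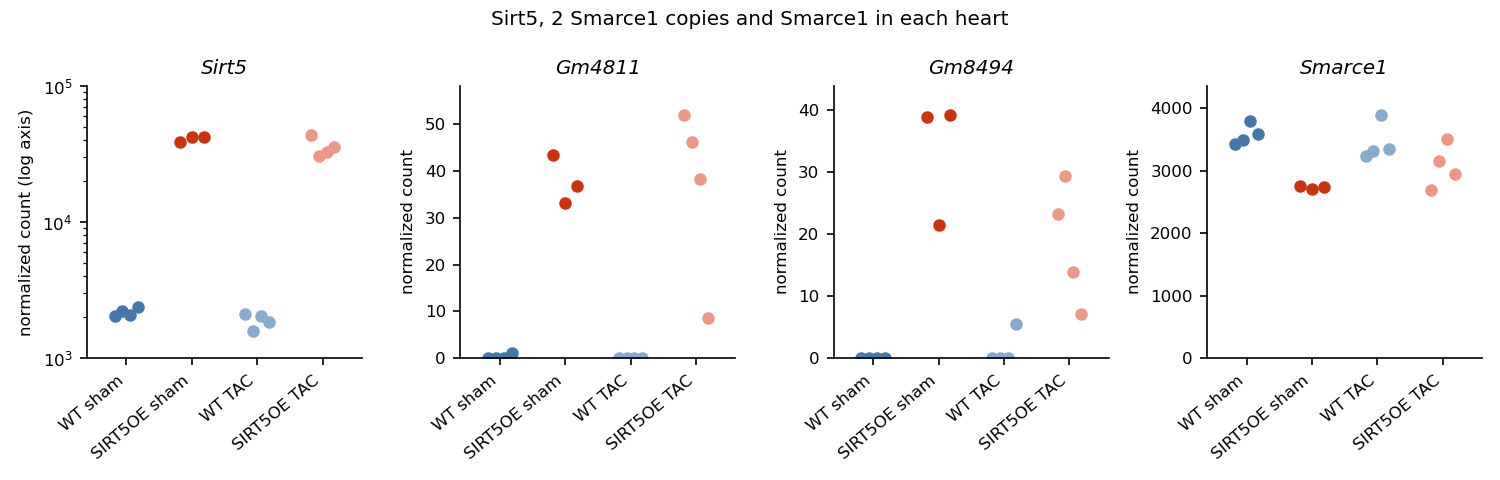
Normalized counts of Sirt5, the processed copies Gm4811 and Gm8494 and their parent gene Smarce1, with 1 point per heart and the 4 groups on the horizontal axis. The axis of Sirt5 is logarithmic and the others start at 0. Every SIRT5OE heart lies above every WT heart for Sirt5, Gm4811 and Gm8494, and for Smarce1 the 3 SIRT5OE sham hearts (2701 to 2763) lie below the 4 WT sham hearts (3433 to 3802).

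The other 2 called genes, Gm4811 and Gm8494, are processed pseudogenes, that is, copies of a spliced mRNA inserted elsewhere in the genome. Both are copies of the same gene, Smarce1, which codes for a subunit of the SWI/SNF chromatin remodelling complex. Gm8494 on chromosome 5 matched the Smarce1 transcript over 1233 bases with 13 mismatches, and Gm4811 on chromosome 13 over 1219 bases with 25. Smarce1 lies on chromosome 11 (99209047 to 99231017, GRCm38), 4.27 Mb from Col1a1. The annotation's sequences show how little separates the copies from their parent. At 4 positions of the Smarce1 coding sequence both called copies carry the same base and Smarce1 another: A1546G, A1561G, G1615C and A1660G, counted from base 1 of the Smarce1 transcript of 2919 bases. These bases do not set the called copies apart from other copies. The first 2 are in all 4 copies of Smarce1 that were aligned, also in Smarce1-ps1 and Gm6411. Smarce1-ps1 and Gm6411 were not among the kept copies matched to Smarce1, so no test result is given for them. The last 2 bases are in 3 of the 4 copies. The first 2 fall in the same stretch of 30 bases, shown 5′ to 3′ with those positions in capitals. Within it only these bases separate Smarce1 from the called copies.
Smarce1, chr11:99213241-99213270, minus strand: gaggaacaAgcccgcaagaggcaAgaggag
Gm8494, chr5:146575764-146575793, plus strand: gaggaacaGgcccgcaagaggcaGgaggag
Gm4811, chr13:64928264-64928293, minus strand: gaggaacaGgcccgcaagaggcaGgaggag
Over this stretch Gm8494 and Gm4811 are identical to each other. The sequences are those of the reference annotation (GENCODE vM21), and the bases that the hearts carry were not read here.

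Gm4811 was listed at 0, 0, 0 and 1.11 normalized counts in the WT sham hearts and at 43.5, 33.3 and 36.9 in the SIRT5OE sham hearts. Gm8494 was listed at 0 in all 4 WT sham hearts and at 38.9, 21.5 and 39.1 in the SIRT5OE sham hearts. All 3 SIRT5OE sham hearts lay above all 4 WT sham hearts for both copies. The fitted log2 differences, 5.00 for Gm4811 (standard error 0.64, adjusted p = 0.00701 from limma) and 5.04 for Gm8494 (standard error 0.74, adjusted p = 0.0251 from limma), rest on values at 0 and so on the pseudocount. No WT heart reached 10 counts for either copy, so both passed the filter on low values through the SIRT5OE hearts alone, and with a filter of at least 50 counts in at least 7 hearts neither was tested. The pseudocount moved the size of the differences: with a pseudocount of 5 they were 3.02 and 2.89. Precision was limited by the number of hearts. Without any one of the SIRT5OE sham hearts Gm4811 had an adjusted p of 0.0926 to 0.110 from limma. The call of Gm8494 ended without any one of the 7 sham hearts, or without SIRT5OE TAC replicate 1 or 3 (adjusted p = 0.0561 to 0.395 from limma).

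The TAC hearts, whose counts are separate from the sham counts although they share the filter and the estimate of spread, also had higher levels of both copies in SIRT5OE. Gm4811 was listed at 0 in all 4 WT TAC hearts and at 52.0, 46.3, 38.3 and 8.49 in the SIRT5OE TAC hearts (log2 difference 4.96, adjusted p = 0.0025 from limma). For Gm8494 the WT TAC hearts were at 0, 0, 0 and 5.55 and the SIRT5OE TAC hearts at 23.2, 29.2, 13.8 and 7.03 (3.43, adjusted p = 0.0281 from limma). In TAC hearts Gm8494 was no longer called without WT TAC replicate 2 or without SIRT5OE TAC replicate 1, 2 or 4, or with the replicate number as a block, while Gm4811 was called each time. Across the series, each of the 7 SIRT5OE hearts was above each of the 8 WT hearts for both copies.

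Smarce1, which the rule for named genes did not pick and which was looked up because of its copies, had lower values in SIRT5OE sham hearts. It had normalized counts of 3433, 3491, 3802 and 3596 in WT sham and 2763, 2701 and 2734 in SIRT5OE sham hearts, with no overlap. The log2 difference of -0.39 (standard error 0.10, unadjusted p = 0.000893) did not pass the adjustment over all genes (adjusted p = 0.993 from limma). In TAC hearts the groups overlapped, at 3234 to 3892 in WT and 2698 to 3509 in SIRT5OE hearts, with a difference of -0.17. The copies together amounted to 2.53% ± 0.478 (SD, n = 3) of the summed counts of Smarce1 and the 2 copies in SIRT5OE sham hearts, so their sum was lower than in WT too, at 2804 ± 45 (SD, n = 3) against 3580 ± 162 (SD, n = 4).

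**Figure D2:**
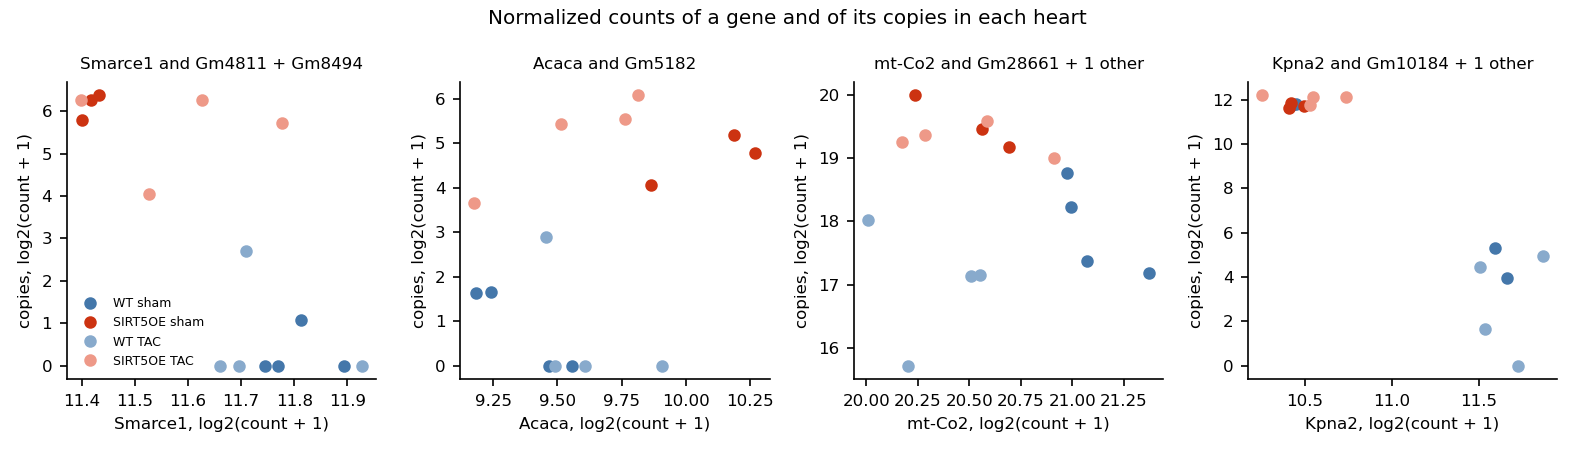
Summed normalized counts of the copies of a gene against those of the gene itself, both as log2(count + 1), with 1 point per heart, for Smarce1, Acaca, mt-Co2 and Kpna2. SIRT5OE hearts stand above WT hearts on the vertical axis for the copies of Smarce1, Acaca and mt-Co2, while for Kpna2 WT sham replicates 2 and 4 lie with the SIRT5OE hearts.

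To look for differences shared by unstressed and loaded hearts, the genotype difference was averaged over sham and TAC, which sets 7 SIRT5OE against 8 WT hearts. It was called in 8 genes (0.0479%), 7 of them higher in SIRT5OE hearts (0.0419%): Sirt5, Gm4811, Gm8494, Gm5182, Gm28661, Gm13340 and Gpr22. Epn3 was the 1 gene that was lower (0.00599%). Hence 5 of the 8 are copies of other genes, while 777 of the 16690 kept genes are copies matched to a parent. These shares are not like for like. Of the 5, Gm4811, Gm8494 and Gm5182 passed the filter through the SIRT5OE hearts alone, and Gm4811 and Gm8494 share a parent. Pseudogenes had an unadjusted p under 0.05 in sham hearts more often than protein-coding genes did, in 5.62% against 2.37%. The count is not stable to single TAC hearts, since it was 782 without WT TAC replicate 3 and 486 without SIRT5OE TAC replicate 3, and it was 5 without SIRT5OE sham replicate 1 or 3.

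Gm5182 on chromosome 12 is a copy of Acaca, with 99.2% identity in the annotation. Acaca codes for acetyl-CoA carboxylase 1, which makes malonyl-CoA, the donor of the malonyl mark that SIRT5 removes, and lies on chromosome 11, 10.8 Mb before Col1a1. Gm5182 was listed at 0, 2.14, 2.09 and 0 in WT sham and at 26.6, 15.8 and 35.5 in SIRT5OE sham hearts. In TAC hearts it was at 6.41 and 3 times at 0 in WT, against 11.6, 42.5, 46.2 and 67.2 in SIRT5OE hearts. No WT heart reached 10 counts, so Gm5182 too passed the filter through the SIRT5OE hearts alone. The averaged log2 difference was 4.16 (standard error 0.56, adjusted p = 0.00614 from limma). Acaca itself was at 707, 605, 580 and 751 in WT sham and at 1235, 931 and 1164 in SIRT5OE sham hearts, without overlap. Its log2 difference of 0.75 (standard error 0.17, 95% interval 0.39 to 1.10, unadjusted p = 0.000388) was not called (adjusted p = 0.719 from limma), and in TAC hearts the difference was -0.05.

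Gm28661 on chromosome 1 and Gm13340 on chromosome 2 are nuclear copies of mitochondrial genes, Gm28661 with 100% identity to mt-Co2 and Gm13340 with 97.6% to mt-Co1, which code for subunits of complex IV. Gm28661 had 148005 to 445173 normalized counts in WT sham and 588978, 716741 and 1043220 in SIRT5OE sham hearts. The sham difference of 1.66 was not called, while the TAC difference of 2.29 (adjusted p = 0.0242) and the average of 1.97 (adjusted p = 0.0160 from limma) were. The averaged call of Gm28661 was lost without the mean-variance trend and with a robust estimate of spread. Leaving out SIRT5OE TAC replicate 2 also ended it, as did leaving out replicate 1 or replicate 3 of the SIRT5OE sham group. Counts of mt-Co2 were lower in SIRT5OE sham hearts, with means of 2266630 and 1492770 (log2 difference -0.61, unadjusted p = 0.0307). Reads of an identical copy can be assigned to either place, and summed over mt-Co2 and its 2 copies the means were 2533970 ± 228362 (SD, n = 4) in WT sham and 2276060 ± 11639 (SD, n = 3) in SIRT5OE sham hearts. Gm13340 had means of 2491 in WT sham and 2984 in SIRT5OE sham hearts (0.26, not called). Its averaged difference was 0.49 (adjusted p = 0.0347 from limma). That call was lost without any single sham heart, with the replicate block and without the mean-variance trend. It was also lost without some single TAC hearts, though not without SIRT5OE TAC replicate 4.

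Gpr22 and Epn3 are protein-coding. Gpr22, an orphan G protein-coupled receptor of the heart, had 2215, 2887, 2484 and 2446 normalized counts in WT sham and 4622, 2918 and 2816 in SIRT5OE sham hearts. In sham hearts alone the groups overlap (log2 difference 0.43, unadjusted p = 0.0670), and the averaged difference of 1.02 (adjusted p = 0.0124 from limma) rested more on the TAC hearts (1.62, adjusted p = 0.0025). The averaged call of Gpr22 was lost with the replicate block and without the mean-variance trend. Epn3, which codes for epsin 3, an adaptor of clathrin-coated vesicles, was lower in both sham and TAC hearts. Its counts were 1191, 1255, 874 and 1360 in WT sham and 773, 853 and 631 in SIRT5OE sham hearts, so that all 3 SIRT5OE values were under all 4 WT values, with a log2 difference of -0.63 (unadjusted p = 0.00244). In TAC hearts the difference was -0.96 (adjusted p = 0.0226 from limma), and on average -0.79 (standard error 0.12, adjusted p = 0.0159 from limma). The averaged call of Epn3 was lost without SIRT5OE sham replicate 1, without SIRT5OE sham replicate 3 and without the mean-variance trend of the fit. The gene lies on chromosome 11 at 94489599 to 94499974 (GRCm38), 0.447 Mb before the start of Col1a1.

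Gm10184 on chromosome 17, a copy of Kpna2 with 99.9% identity, split the WT sham hearts themselves. It was listed at 19.1, 3426, 0 and 3575 in the 4 WT sham hearts and at 3116, 3669 and 3327 in the SIRT5OE sham hearts. WT TAC hearts were at 0 in 3 cases and at 14.0 in 1, and SIRT5OE TAC hearts at 3420 to 4723. Kpna2, an importin that carries proteins into the nucleus and whose gene lies 12.1 Mb after Col1a1, was low where the copy was high. Its counts were 3091 and 3242 in WT sham replicates 1 and 3, 1378 and 1396 in WT sham replicates 2 and 4, and 1358 to 1444 in the SIRT5OE sham hearts. Neither was called in the sham comparison, where WT sham replicates 2 and 4 resembled the SIRT5OE hearts.

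The genes near Col1a1 were therefore described as a group, in a window chosen after the values were seen and hence given without a test. Of the 33 kept genes that start within 5 Mb before Col1a1, 6 (18.2%) had an unadjusted p under 0.05 in sham hearts, 5 of them lower in SIRT5OE, against 2.56% of all kept genes. Within 5 Mb on either side the share was 7.58% of 132 genes, it was 2.55% of the 785 genes of chromosome 11 more than 20 Mb away, and on other chromosomes 2.49%. For the difference averaged over sham and TAC, 16 of the 33 genes (48.5%) had an unadjusted p under 0.05, against 16.9% of all genes. This averaged share was 24.2% within 5 Mb on either side and 17.5% within 20 Mb. In the 5 Mb after the start of Col1a1, the side of Smarce1, the shares were 4.04% in sham hearts and 16.2% averaged. In TAC hearts alone 11 of the 33 (33.3%) had such a p, against 28.9% of all genes. With p under 0.05 and the same sign in both sham and TAC hearts there was 1 of the 33 (3.03%), against 0.425% of all genes. The 6 genes in sham hearts were Epn3, Nme2, Gm20390, Gm45716, Eme1 and Utp18. Nme2, a nucleoside diphosphate kinase, had 21639 to 25424 normalized counts in WT sham and 19917 to 20514 in SIRT5OE sham hearts (-0.24). Gm20390, which shares its sequence with Nme2, had -0.94. Utp18, a factor of ribosome biogenesis, was the 1 gene of the 6 with a higher level (0.37). Tom1l1, an adaptor of endosomal sorting 4.29 Mb before Col1a1, had 1012 to 1249 counts in WT sham and 1282 to 1321 in SIRT5OE sham hearts (0.24). None of these was called in sham hearts. In TAC hearts Gm45716 (-0.32 in sham, 0.49 in TAC) and Eme1 (-1.24 and 1.02) had the opposite sign. Without WT sham replicate 3, SIRT5OE sham replicate 1 or SIRT5OE sham replicate 3 the count of 6 became 3.

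**Figure D3:**
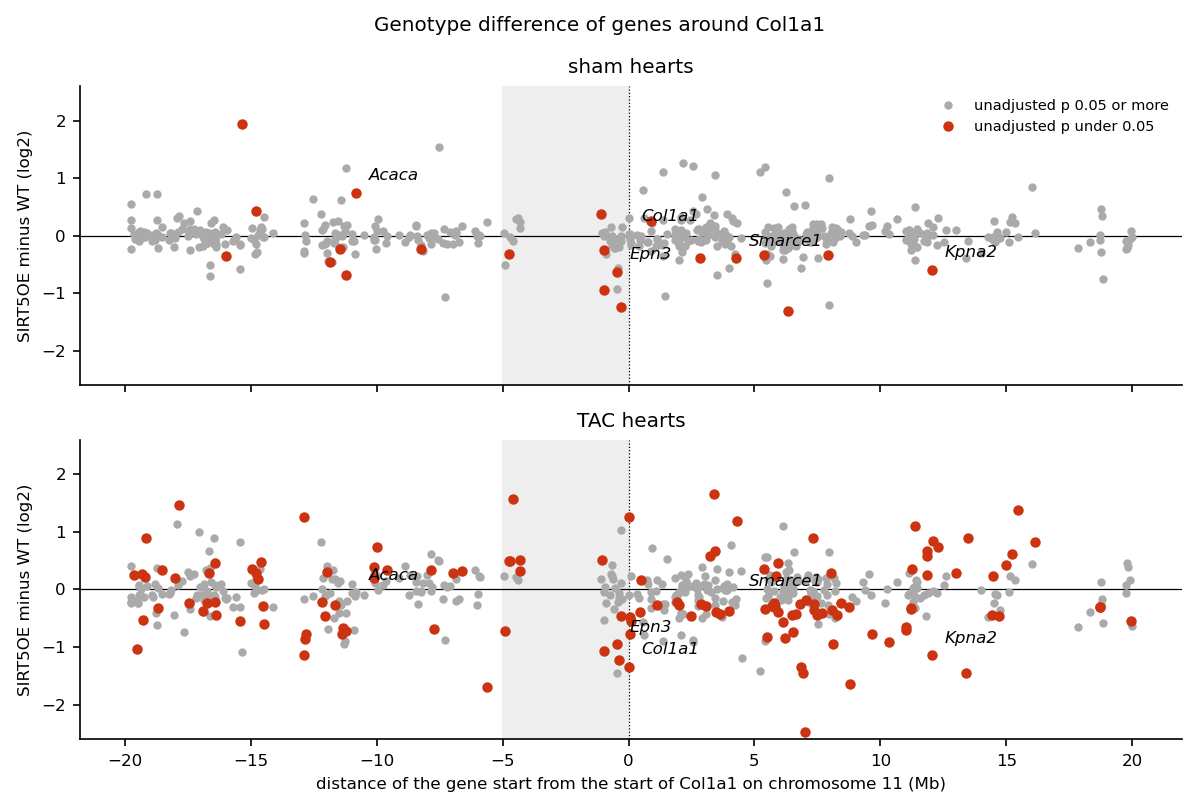
Log2 difference between SIRT5OE and WT for the 508 kept genes that start within 20 Mb of Col1a1, against the distance of their start from that of Col1a1, in sham hearts (top) and TAC hearts (bottom). Red points have an unadjusted p under 0.05, the grey band marks the 5 Mb before Col1a1, and 2 genes fall outside the vertical axis in at least 1 panel. In the band 6 of 33 genes are red in sham hearts.

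Copies were then grouped by where their parent gene lies. Of the 25 kept copies whose parent starts within 20 Mb of Col1a1, 5 (20%) had an unadjusted p under 0.05 in sham hearts and 4 (16.0%) had one in both sham and TAC hearts with the same sign: Gm4811, Gm8494, Gm5182 and Gm10184. Among the 31 copies with a parent elsewhere on chromosome 11 the shares were 12.9% and 0%. They were 7.21% and 0.693% among the 721 copies with a parent on another chromosome, and 2.56% and 0.425% among all kept genes. Of all 61 copies with an unadjusted p under 0.05 in sham hearts, 37 were lower and 24 higher in SIRT5OE, and the genes drawn with their copies were chosen after their values were seen. This grouping too was chosen after the values were seen. Gm4811, Gm8494 and Gm5182 passed the filter through the SIRT5OE hearts alone, and Gm4811 and Gm8494 share the parent Smarce1. For Gm10184 the sham groups overlap. The shares of the copies with a parent near Col1a1 therefore follow in part from the filter, and they were not tested. Whether bases near Col1a1 differ between SIRT5OE and WT hearts was not tested, since the deposited values hold no sequence.

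No enzyme known as a SIRT5 substrate was called in sham hearts. Of 26 such enzymes listed 23 were measured, 0 were called and 0 had an unadjusted p under 0.05. The median log2 difference was -0.02, against -0.000684 over all kept genes, and for 22 of the 23 the 95% interval lay within -1 and 1. Hadha, the trifunctional enzyme of long-chain fatty acid oxidation, had means of 79163 and 81888 (0.05). Sdha, the catalytic subunit of succinate dehydrogenase, had means of 103060 and 101440 (-0.02). Idh2, the mitochondrial NADP-dependent isocitrate dehydrogenase, stood at 115070 and 113840 (-0.02). In TAC hearts 7 of the 23 substrate enzymes were called higher in SIRT5OE, where 3.8% of all genes were.

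Enzymes that make or use malonyl-, succinyl- and glutaryl-CoA, the acyl donors, gave Acaca as the 1 of 19 with an unadjusted p under 0.05. Acacb, the carboxylase of the outer mitochondrial membrane, had means of 17475 and 19246 (0.14, 95% interval -0.18 to 0.45). Mlycd, malonyl-CoA decarboxylase, had 0.04 (-0.32 to 0.40), and Sucla2 and Suclg1, subunits of succinyl-CoA ligase, 0.01 and -0.05. The TCA cycle (18 genes) and fatty acid uptake and beta-oxidation (23 genes) each had 0 members with an unadjusted p under 0.05. In the latter list all 23 intervals lay within -1 and 1, from Eci1 at -0.12 to Cd36, a fatty acid transporter, at 0.19 (means of 128450 and 146830).

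Of the nuclear genes of the respiratory chain, 0 of 78 gene IDs were called. While 65 had a log2 difference below 0, the median was -0.07, against -0.000684 over all kept genes. In 14 of the 78 (17.9%) the sham groups did not overlap, against 7.4% of all genes. SIRT5OE was lower in 6 and higher in 1 of these in complex I, and lower in 5 and higher in 2 in complexes II to V. Cox5b, a subunit of complex IV, was the 1 ID of the 78 with an unadjusted p under 0.05 (means of 27078 and 21682, -0.31). These genes are short, with a median longest transcript of 1046 bases, and length moved with the difference over all genes: the median was -0.05 in the 3856 genes with transcripts of up to 2221 bases and 0.06 in the 3855 genes with transcripts of 4868 bases or more. Its part in the respiratory chain values was not tested. Of the 13 mitochondrially encoded genes mt-Co2 had an unadjusted p under 0.05, as given above. In NAD metabolism Nnt, the transhydrogenase that feeds mitochondrial NADPH, is listed under 2 gene IDs on chromosome 13 that moved apart. One had means of 22747 in WT and 16406 in SIRT5OE sham hearts (-0.47), the other 11523 and 17598 (0.63), and neither was called. Their sum was 34271 ± 1819 (SD, n = 4) and 34004 ± 267 (SD, n = 3), a log2 difference of -0.01.

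**Figure D4:**
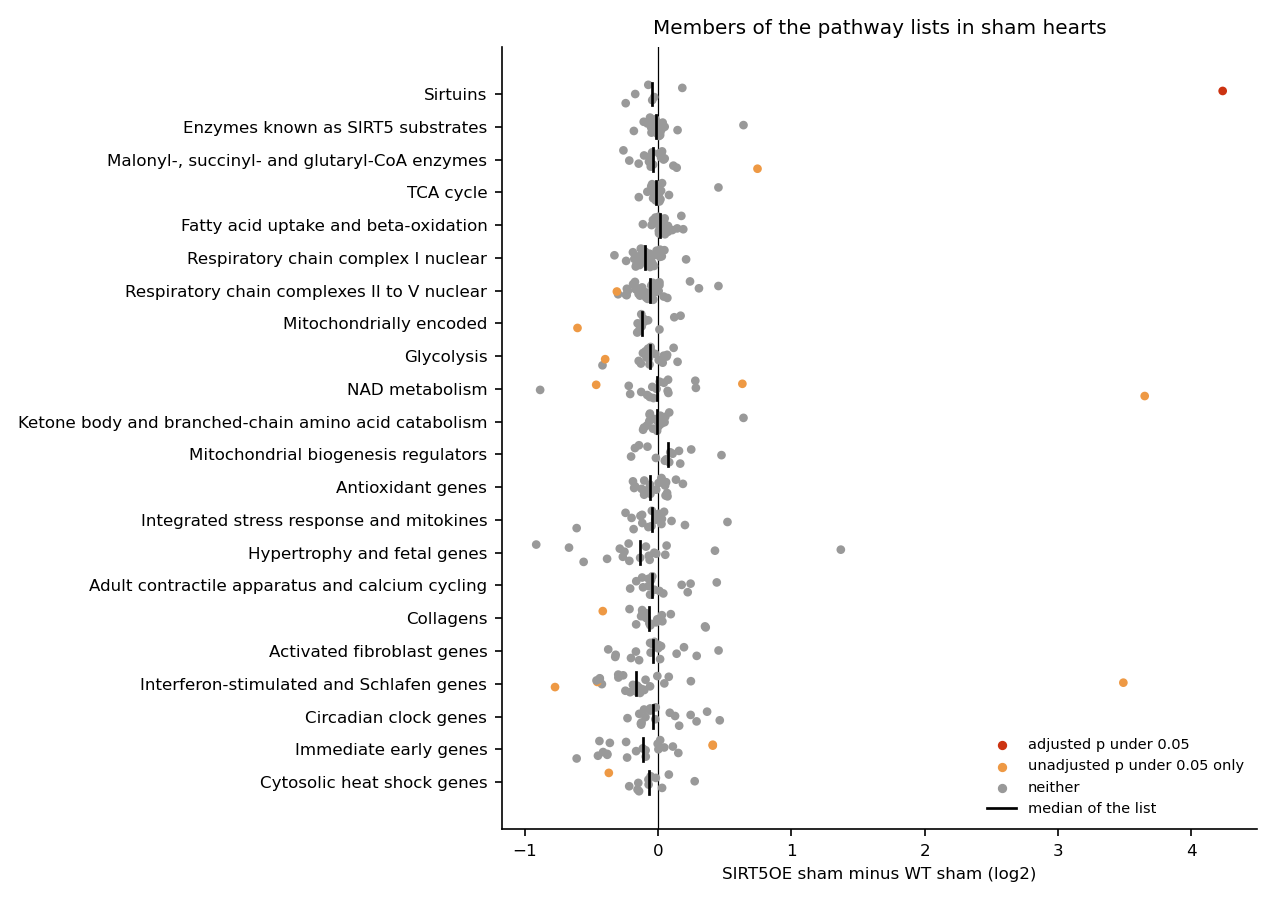
Log2 difference between SIRT5OE sham and WT sham hearts for each measured member of the 22 pathway lists, with 1 point per gene ID (red at an adjusted p under 0.05, orange at an unadjusted p under 0.05 alone, grey otherwise) and a bar at the median of the list. Sirt5 at 4.24 is the 1 point with an adjusted p under 0.05, and the medians of the lists lie between -0.17 (interferon-stimulated and Schlafen genes) and 0.07 (regulators of mitochondrial biogenesis).

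Across the 22 pathway lists 409 genes were measured under 420 gene IDs. Sirt5 was called and 0 others were. At an unadjusted p under 0.05 there were 7 IDs higher, Sirt5 among them, and 8 lower (3.57%, against 2.56% of all genes). Of the 7, 2 are a placed and an unplaced ID of Jund, an immediate early gene, with identical counts in every heart (0.41), so that 1 gene is counted 2 times. For 84.3% of the IDs the 95% interval lay within -1 and 1. Glycolysis had Hk2, a hexokinase, at 16240 to 23986 normalized counts in WT sham and 14002 to 15213 in SIRT5OE sham hearts (-0.40, unadjusted p = 0.0204). Regulators of mitochondrial biogenesis had 0 of 14, with Ppara, the fatty acid-sensing nuclear receptor, at 0.47 (unadjusted p = 0.0597). Among interferon-stimulated and Schlafen genes Mx1, an antiviral GTPase, had 60.8 to 94.0 normalized counts in WT sham and 29.0 to 50.1 in SIRT5OE sham hearts (-0.77, unadjusted p = 0.0231). The groups do not overlap, and in TAC hearts the sign was the opposite (0.48). The 2 points near 3.5 in the plot of the lists are gene IDs with hearts listed at 0: an unplaced ID of Slfn2, at 0 in all 4 WT sham hearts and at 51.9, 0 and 25.9 in SIRT5OE sham hearts, and an unplaced ID of Nadk2, at 54.4, 142, 0 and 691 against 744, 447 and 671. Both overlap between the groups. The placed ID of Slfn2 had means of 559 and 405 (-0.46, unadjusted p = 0.0240), and the sum of its IDs had a log2 difference of -0.37. Of the cytosolic heat shock genes Hsph1, a co-chaperone of HSP70, had means of 3269 and 2536 (-0.37, unadjusted p = 0.0440). Antioxidant genes, the integrated stress response and circadian clock genes had 0 members with an unadjusted p under 0.05 each.

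No gene of hypertrophy or fibrosis was called in the unstressed hearts. Among 19 measured fetal and hypertrophy genes 0 were called, and the median log2 difference was -0.14. Nppb, the natriuretic peptide of stretched ventricles, had 24443, 12461, 10741 and 14033 normalized counts in WT sham and 6592, 12240 and 9657 in SIRT5OE sham hearts. Here the groups overlap, and WT sham replicate 1 was the highest (-0.67, 95% interval -1.39 to 0.05). Acta1, skeletal alpha-actin, had -0.56 (-1.18 to 0.06). In TAC hearts 11 of the 19 genes of this list were called lower in SIRT5OE, where 3.43% of all genes were. Of 19 collagens, Col6a3 of the type VI microfibrils had an unadjusted p under 0.05 (means of 2163 and 1616, -0.42), and of 18 genes of activated fibroblasts none did. Contractile and calcium-cycling genes of the adult heart had 0 of 16, with Cacna1c, the pore of the L-type calcium channel, at 0.22 (-0.01 to 0.45).

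Markers of the cell types of the heart gave no called gene among 97 measured. Of 8 cardiomyocyte markers, all were present and none differed at an unadjusted p under 0.05, and their summed counts were 2524500 to 3048300 in WT sham and 2464700 to 2640500 in SIRT5OE sham hearts. Endothelial markers summed to 74011 to 78117 and to 68759 to 73628, so that the sums of the SIRT5OE hearts lay lower. Singly, each of the 8 endothelial markers overlapped between the groups and none had an unadjusted p under 0.05. Their differences ran from -0.22 (Vwf) to -0.04 (Tek). Fibroblast markers summed to 91930 to 103650 and to 93703 to 108880. In whole-heart RNA fewer cells of a type and less RNA per cell cannot be told apart. Neutrophil markers were few, with sums of 190 to 454 in WT and 122 to 193 in SIRT5OE sham hearts. Csf3r, the receptor for granulocyte colony-stimulating factor, was among them at 105, 81.5, 156 and 91.7 against 47.8, 52.2 and 61.2 (-0.97, unadjusted p = 0.00645). The other 5 neutrophil markers measured overlapped between the groups, from S100a8 at -1.16 to Retnlg at 0.24. Mbp, a myelin protein, was the 1 other marker of any list with an unadjusted p under 0.05, at 84.7, 114, 148 and 94.9 in WT sham and 149, 205 and 205 in SIRT5OE sham hearts (0.77, unadjusted p = 0.0443). Skeletal muscle and adipocyte markers were mostly under the filter, with 3 of 7 and 2 of 7 measured.

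The remaining genes of small p-value had adjusted p-values of 0.632 or more and are given as values. Micos13, a subunit of the MICOS complex that shapes mitochondrial cristae, was at 5366, 4244, 5287 and 5231 in WT sham and at 3232, 3204 and 3392 in SIRT5OE sham hearts (-0.61, unadjusted p = 0.000255). All 3 SIRT5OE sham hearts were below each of the other 12 hearts, TAC hearts of both genotypes included. Snrpg, a core protein of the spliceosome, was also below all other hearts, at 516 to 555 against 677 to 846 in WT sham hearts (-0.55). Dcp2, the mRNA decapping enzyme, was higher, at 986 to 1442 and 1628 to 1970 (0.60). S100a7a, a small calcium-binding protein, had 3.66 to 5.29 counts in WT sham and 34.5, 47.2 and 142 in SIRT5OE sham hearts (3.59), while in TAC hearts the sign was the opposite (-0.46). Rrp7a, a factor of ribosomal RNA processing, had 1363 to 1798 and 1150 to 1256 (-0.35), and in TAC hearts it was called lower (-0.52, adjusted p = 0.0316 from limma). In 160 genes (0.959%) the 3 SIRT5OE sham hearts lay above all 12 others and in 165 (0.989%) below them, given as a description without a test. The same counts for the groups of 4 hearts were 44 and 40 in WT sham, 414 and 428 in WT TAC and 21 and 18 in SIRT5OE TAC. By chance a group of 3 hearts stands apart more often than a group of 4, so the counts cannot be compared directly.

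Among genes with a mean of at least 100 counts, an unadjusted p under 0.05 and no overlap, the largest differences upward after Sirt5 were in Gm28661, Galnt2, F830016B08Rik, Scand1, Gm37240, Nt5c1a and Nrtn. Among these, F830016B08Rik had 226 to 292 normalized counts in WT sham and 543 to 745 in SIRT5OE sham hearts (1.20), and Gm37240 had 128 to 366 and 452 to 517 (1.05). Galnt2, which starts O-linked sugar chains on secreted proteins, had 250 to 1089 in WT sham and 1399 to 1788 in SIRT5OE sham hearts (1.27). Scand1 had 226 to 421 and 577 to 749 (1.06). Nrtn, a neurotrophic factor, had 158 to 276 and 347 to 428 (0.86). Nt5c1a, a cytosolic 5′-nucleotidase of muscle, had 192 to 553 and 588 to 741 (0.89). Downward, 6 of the 8 were pseudogenes, most of them with hearts listed at 0, and the other 2 were Fam177a2 and Lars2. Gm12338, a copy of Cox7c, was at 1058, 858, 3134 and 1647 in WT sham and at 0, 0 and 64.0 in SIRT5OE sham hearts, while SIRT5OE TAC hearts held 992 to 3242. Cox7c itself, a subunit of complex IV, had means of 26917 and 33346. Rps6-ps4 was at 2350, 2094, 5137 and 2045 in WT sham and at 0, 360 and 17.2 in SIRT5OE sham hearts. Rps13-ps2 was at 16.8, 93.0, 314 and 103 and then at 0 in all 3 SIRT5OE sham hearts. These 3 copies, and the next named, Gm10443, Gm10241 and Gm13597, are all identical to their parent over their annotated length. Their reads can therefore be assigned to either place. Gm10443, a copy of Rps28, was at 382, 259, 625 and 326 and at 0, 74.0 and 87.2. Gm10241, a copy of Sumo2, was at 135, 107, 188 and 336 and at 0, 19.2 and 18.8. Gm13597, a copy of Tax1bp3, was at 114 to 166 in WT sham and 37.5 to 91.4 in SIRT5OE sham hearts (-1.17). None of these 6 copies was below WT in both sham and TAC hearts at an unadjusted p under 0.05. Fam177a2 was listed at 220, 171, 553 and 1119 in WT sham and at 0 in all 3 SIRT5OE sham hearts. In TAC hearts it was at 0, 606, 112 and 8.43 in WT and at 0, 0, 271 and 1343 in SIRT5OE. Lars2, the mitochondrial leucyl-tRNA synthetase, had 402987 to 679560 in WT sham and 168100 to 311319 in SIRT5OE sham hearts (-1.23, unadjusted p = 0.000847, adjusted p = 0.993 from limma). Apart from Sirt5, none of these genes was called in sham hearts in the main fit. A fit of the sham hearts alone called Fam177a2 (-8.62, adjusted p = 0.000298 from limma). It also called Rps13-ps2 (-6.43) and F830016B08Rik (1.20), each with an adjusted p of 0.0317 from limma. With array weights Fam177a2, Gm12338 and Lars2 were called, and Gm12338 was also called without WT TAC replicate 4.

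The sham hearts separated by genotype on the first principal component, and not once genes listed at 0 or SIRT5OE sham replicate 1 were left out. On the first principal component of the 500 kept genes of largest variance, which carried 27.7% of the variance, WT sham hearts were at -15.8 ± 12.5 (SD, n = 4) and SIRT5OE sham hearts at 21.1 ± 13.3 (SD, n = 3), without overlap (two-sided exact permutation test, p = 0.0286, the smallest possible). Without SIRT5OE sham replicate 1 the difference of 36.9 became 3.14 (exact permutation p = 0.933, and 6 hearts allow none under 0.0667). Of these 500 genes 413 were listed at 0 in at least 1 sham heart and 189 were pseudogenes. With the 500 most variable of the 16117 genes above 0 in all 7 hearts, an alternative chosen after the data were seen, the difference was 0.0837 (exact permutation test, p = 1), and with protein-coding genes alone it was 8.22 (exact permutation test, p = 0.629). Over all kept genes the root mean square log2 difference between 2 hearts had a median of 0.712 for the 12 pairs of unlike genotype, 0.740 for the 6 pairs within WT sham and 0.636 for the 3 pairs within SIRT5OE sham.

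**Figure D5:**
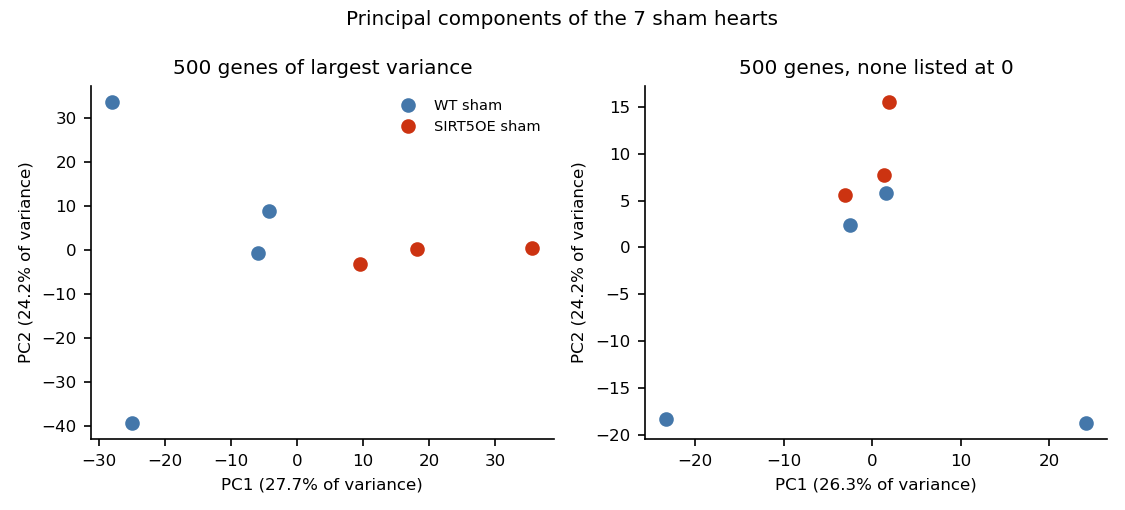
First and second principal components of the 7 sham hearts, with 1 point per heart, from the 500 kept genes of largest variance (left) and from the 500 of largest variance among genes above 0 in all 7 hearts (right). SIRT5OE sham hearts lie to the right of WT sham hearts in the left panel, and in the right panel the group means on the first component lie 0.0837 apart.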

How the data were processed

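Total RNA from mouse hearts was depleted of ribosomal RNA and sequenced on a HiSeq4000. The deposited signal values are the authors' normalized counts: the authors ran kallisto on the Ensembl cDNA set of release 101 (the methods give kallisto version 0.46.0, the submitters' processing notes 0.43.1 and mm10), and passed its estimates through tximport (version 1.18.0) to gene level and then to DESeq2 for normalization. They are not whole reads, so no count model was used and depth is unknown. Exact zeros can be failed estimates, and named genes with zeros are given heart by heart. The study lists its TAC mice in numbered batches, to which the sources used here do not assign the hearts, so batch was not modelled.

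The model of 4 group means over 15 hearts was run in R 4.3.3 with limma 3.58.1, with a mean-variance trend. Exact permutation tests, all two-sided, served for single values. Positions are from GENCODE vM21 (GRCm38), which placed 16411 kept genes. Copies were matched to parent transcripts with blastn 2.17.0 (minimum identity 90%, minimum aligned share of the copy 50%), which gave 777 a parent. The fit was checked on simulated data.

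The rule for named genes takes Sirt5, Col1a1, all DEGs, the 10 of smallest adjusted p in the sham and averaged comparisons, the 8 largest rises and falls at p under 0.05 with no overlap and a mean of at least 100, 2 per list, and neighbours of Sirt5 and Col1a1; list members and neighbours not described singly are covered by the counts and ranges of their group. Smarce1, Kpna2, the genes named in the window before Col1a1 and further list members (such as the other sirtuins, Hadha, Acacb and Nadk2) fall outside this rule and were chosen after their values were seen. Members and lists were chosen with earlier results of these data known. Figures were drawn with matplotlib 3.10.9. The values of some genes that the rule takes are not reported here.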

Additional observations from a re-analysis of the deposited data

Results flagged for a closer look

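Among 68 groups of 4 hearts checked for the genes named, 5 were flagged because 1 heart stood apart from the other 3. Chance alone gives about 1 in 20 for normally spread values. In 3 of the 5 the other hearts were at 0, so that any value above 0 is flagged and this rate does not apply. For Gm4811 it was WT sham replicate 4 (1.11 normalized counts, the others at 0). For Gm8494 it was WT TAC replicate 4 (5.55, the others at 0), and for Gm5182 WT TAC replicate 1 (6.41, the others at 0). Micos13 in WT sham replicate 2 was low (4244, the others 5231 to 5366), and without it the log2 difference of this gene was -0.69 in place of -0.61, still not called. Col6a3 in WT sham replicate 3 was high (2635, the others 1956 to 2052), and without it the difference was -0.32 in place of -0.42.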

How the results depend on the processing

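The 3 DEGs between the sham groups, which are also the 3 genes called by adjusted p alone, became 5 with no filter, 1 with a filter of at least 50 counts in at least 7 hearts, 6 in a fit of the sham hearts alone and 1 with the replicate number as a block. The fit of the sham hearts alone added F830016B08Rik, which was higher, and Fam177a2 and Rps13-ps2, which were lower. With array weights there were 11 DEGs and 17 called genes. Among the 17 were Acaca, Smarce1, Gm5182, S100a7a, Micos13, Snrpg, Lars2, Fam177a2 and Gm12338. Summing copies with their parent gene, or keeping protein-coding genes alone, both chosen after seeing the data, left 1. Of the 3 genes, 1 could be tested in TAC hearts under the stricter filter, with copies summed or with protein-coding genes alone. The 8 genes of the averaged difference became 5 with the stricter filter, 4 without the mean-variance trend, 828 with array weights and 3 with copies summed or with protein-coding genes alone. Leaving out 1 heart at a time gave 1 to 4 DEGs, 1 to 4 called genes and, of the 3 genes, 2 to 3 called in TAC hearts. It gave 5 to 782 genes for the averaged difference. The Sirt5 difference ranged from 4.21 to 4.28 and was called each time.

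The difference on the first principal component was 39.3 with all kept genes (exact permutation p = 0.0857), 8.16 with genes scaled to unit variance (exact p = 0.629), 0.0837 with genes above 0 in all 7 hearts and 8.22 with protein-coding genes. Without single hearts it was 3.14 to 43.1. The Col1a1 difference was -0.00485 with the replicate block and -0.0099 to 0.0996 without single hearts.

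Same-numbered sham hearts had correlations of 0.0392 to 0.05 of their deviations, all under 0.1, so the hearts were taken to share only a number, though each SIRT5OE heart correlated best with its own. With the replicate block Gm4811 (adjusted p = 0.106 from limma) and Gm8494 (adjusted p = 0.197) were no longer called. The number of hearts and values listed at 0 limit what can be seen for genes of low level.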
